A study of Mus musculus with 8 samples.

Results

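The genes described here were the autosomal genes that stood higher in mouse embryonic fibroblasts (MEFs) lacking Taf4 than in control MEFs, with a difference of at least 1 on the log2(FPKM + 1) scale. FPKM is fragments per kilobase of transcript, scaled to the size of the library, the unit of the deposited table, and 1 was added before the logarithm so that low values do not dominate. The rule took genes listed at 1 FPKM or more in 2 or more libraries, with a longest transcript of at least 300 bases. It found 95 genes among the 12022 genes tested, of which 11636 were autosomal, and 666 autosomal genes stood at least 1 lower. The 8 libraries came from C57BL/6 MEFs in 4 groups of 2. Both rescue forms were cells with the genotype Taf4 -/- that stably carried a human TAF4 transgene, Tg:hTAF4 Δ (TAFH-deleted, clones 1 and 2) or Tg:hTAF4 wt (wild-type human TAF4, clones 1 and 2). The knockout libraries were Taf4 -/- with no transgene named, and the control libraries were Taf4 loxp/-, which still carry 1 floxed allele and which another label field calls wild type. Each rescue library was 1 clone, so the transgene form and the origin of the clone cannot be told apart, and the labels name no promoter for the transgene. Nothing in the labels states that the 2 knockout or the 2 control libraries are separate cultures. The p-values rest on the spread between the rescue clones and reach no further than these clones. With 1 library per clone, differences between clones and between library preparations cannot be told apart.

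TAF4 is a subunit of TFIID, the general transcription factor that binds core promoters and helps RNA polymerase II start transcription. The TAFH domain of TAF4 is a binding surface for other transcription factors, among them E proteins, so a transgene without it leaves the rest of the protein in place while removing that contact. Genes that go up when a TFIID subunit is lost are of interest in fibroblasts because these cells can switch on interferon, inflammatory, acute-phase and low-oxygen programmes, each with its own transcription factors. The comparison with the rescue lines asks which of the raised genes came back towards the control level when human TAF4 was returned, with or without the TAFH domain.

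The targeted gene did not separate the labelled genotypes. Taf4a had 14.7 and 19.2 FPKM in the TAFH-deleted clones, 14.5 and 15 in the wild-type clones, 12.5 and 12.4 in knockout libraries and 11.1 and 11.5 in control libraries. The labels do not state which exons were deleted, and it was not tested whether reads of the human transgene align to mouse Taf4a and enter the rescue values. This gene therefore does not check the label, and "knockout" below means the libraries labelled so. The FPKM steps implied between 14266804 and 17304713 fragments per library, with 14809832 and 14809833 in knockout and 17258599 and 17304713 in control libraries. Some abundant fibroblast genes stood slightly higher in knockout. Col1a1 had 131 FPKM in each knockout and 113 in each control library, and Vim 140 in each knockout and 120 and 121 in control libraries. Pdgfrb and S100a4 stood lower in knockout, and the part of depth in these differences was not tested. Fibroblast markers summed to between 761 and 853 FPKM in every library, with 8 of 9 markers tested and Thy1 under 1 FPKM throughout. The leukocyte markers Ptprc, Emr1, Itgam, Laptm5 and Coro1a and all 6 endothelial markers stayed under 1 FPKM in every library. Macrophage and leukocyte markers summed to 7.97 to 8.79 FPKM in the TAFH-deleted clones, 17.1 to 24.1 in the wild-type clones, 14 to 15.3 in knockout and 15.1 to 16.3 in control libraries, and neural markers (2 of 6 tested, Nefl and Sox10 at 0) to 1.69 to 3.21, 10.3 to 10.9, 7.49 to 8.07 and 69.9 to 71.6 FPKM in the same order of groups. The neural sum in control was mostly Stmn2, with 57.1 and 56.6 FPKM there and under 1 FPKM in every other library. Tubb3 had 14.5 and 13.4 FPKM in control, and Gfap stayed under 1 FPKM in every library. Adipocyte markers summed to 24.8 to 39.3 FPKM in the TAFH-deleted clones, 57.9 to 68.1 in the wild-type clones, 56.8 to 60.1 in knockout and 76.9 in control libraries. Fabp4 and Pparg made up most of this sum, and Adipoq, Plin1 and Lpl stayed under 1 FPKM in every library. The part of these markers in the results below was not tested. In bulk RNA, fewer cells of a type and less RNA per cell cannot be told apart. Gapdh was listed at 0.0682 to 0.599 FPKM, so a low listed value need not mean a low transcript level.

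The values of the knockout and control libraries chose the genes, so they are given as a description with no test. The difference, knockout minus control, ran from 1.00 to 3.17 with a median of 1.20, against a median of -0.03 over all genes tested. Of the genes tested, 0.807% stood at least 1 higher and 5.75% at least 1 lower in the knockout libraries, so raised genes were the smaller of the 2 sets. Differences of 2 or more were seen for 11 genes, namely Cpxm2, Amd1, Slc16a3, Ifi27l2a, Ifitm6, Slc43a3, Serpine2, Ccl20, Car9, Ifitm1 and Usp18. A further 36 lay between 1 and 1.1, and 28 autosomal genes lay between 0.9 and 1, just short of the rule. Spink6, a protease inhibitor, was the closest gene inside, with 1.59 FPKM in each knockout library and 0.151 and 0.453 FPKM in control libraries. Lrrc24 came next inside at 1.00, and Mcam, a cell adhesion molecule, was second outside at 0.990. Atf3, a stress-induced transcription factor, was the closest outside at 0.996, with 32.7 and 33.5 FPKM in knockout and 16.8 and 15.4 FPKM in control libraries. Raised genes were of modest listed abundance: their mean level ran from 1.41 to 67.7 FPKM in knockout libraries with a median of 7.90, and from 0.00214 to 25.9 FPKM in control libraries with a median of 2.59. For Ccl20, the highest, the knockout fragments numbered 50.1% of the start positions on both strands of its transcript. More abundant genes such as Lcn2, with 162 and 160 FPKM in knockout and 128 and 127 in control, did not meet the rule. Whether listed values have an upper limit that keeps abundant genes out was not tested. In control libraries 27 of them were under 1 FPKM and 28 rested on fewer than 20 fragments, while in knockout libraries 6 did (Spink6, Apoc1, 1700092M07Rik, Saa2, Hist1h2bg and Hist1h4a). On the X chromosome, Ap1s2 and S100g also stood at least 1 higher and were kept out by the rule.

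Some of the raised genes shared their locus with another listed gene, and reads at such a locus can be divided between genes. Of 14 such genes, 8 fell below the rule when the FPKM of all genes at the locus were added together, a check chosen after seeing the data, which left 87. For 2610318N02Rik, 9330133O14Rik, Col7a1 and Ebf3 the sum equalled the gene's own values. The clearest was Amd1, an enzyme of polyamine synthesis that has a near-identical neighbour, Amd2. Amd1 had 7.44 and 0.00244 FPKM in the TAFH-deleted clones, 5.48 and 0.00218 in the wild-type clones, 6.98 and 6.92 in knockout and 0.00214 and 0.00215 in control libraries. Amd1 was near 0 in the 4 libraries where Amd2 was highest: Amd2 had 1.18 and 7.53 FPKM in the TAFH-deleted clones, 0.0614 and 6.48 in the wild-type clones, 0.462 and 0.350 in knockout and 6.25 and 5.87 in control libraries. The sum of both differed by only 0.24 between knockout and control. Gm16907, Gm9781, Lrrc24, Mcts2, Moap1, Poln and Rnaset2a also dropped below the rule, so these 8 genes are uncertain. A drop need not mean divided reads, because adding a more abundant gene shrinks any difference. In knockout libraries the locus sum was 47.6 and 47.9 FPKM for Moap1, which itself had 8.45 and 7.36. H13, at the Mcts2 locus, had 46.0 FPKM in each knockout library and 41.0 and 40.4 in control. It did not fall in knockout as Amd2 did. Which genes had divided reads was not tested. Of other near-identical families, the difference of the sum was 1.59 for Hist2h3c1 and Hist2h3c2, 1.05 for Apol9a and Apol9b, and 1.48 for Orm1 to Orm3.

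Promoters are shown for 4 of the raised genes, chosen after their letters were seen, as examples with a match among the interferon and hypoxia genes of the set. Sequences from 250 bases before to 50 bases after the transcription start came from RefSeq on GRCm38.p6 and were found for 70 of the 95 genes. Capitals mark matches on either strand to GAAANNGAAA, the core of the interferon response element, in Ifit1 and Oas1a, and to ACGTG or GCGTG, the core of the hypoxia response element, in Slc16a3 and Car9.
Ifit1, chr19:34640639-34640938, + strand: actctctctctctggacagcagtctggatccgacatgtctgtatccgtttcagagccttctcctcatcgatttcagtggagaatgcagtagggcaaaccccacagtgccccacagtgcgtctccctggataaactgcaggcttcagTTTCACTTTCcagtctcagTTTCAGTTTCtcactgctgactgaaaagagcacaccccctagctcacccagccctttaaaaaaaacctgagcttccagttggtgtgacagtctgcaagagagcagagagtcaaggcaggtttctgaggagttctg
Oas1a, chr5:120907476-120907775, - strand: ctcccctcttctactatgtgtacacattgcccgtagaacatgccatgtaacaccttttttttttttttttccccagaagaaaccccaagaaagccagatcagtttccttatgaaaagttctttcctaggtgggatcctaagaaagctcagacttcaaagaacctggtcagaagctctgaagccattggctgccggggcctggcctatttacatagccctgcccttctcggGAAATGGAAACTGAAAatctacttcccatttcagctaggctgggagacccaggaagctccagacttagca
Slc16a3, chr11:120948817-120949116, + strand: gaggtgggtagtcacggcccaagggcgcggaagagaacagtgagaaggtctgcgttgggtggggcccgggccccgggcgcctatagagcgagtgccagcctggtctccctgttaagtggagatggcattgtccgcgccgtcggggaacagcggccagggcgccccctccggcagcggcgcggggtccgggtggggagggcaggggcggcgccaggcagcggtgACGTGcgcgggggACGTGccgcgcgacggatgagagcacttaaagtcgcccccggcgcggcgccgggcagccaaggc
Car9, chr4:43506776-43507075, + strand: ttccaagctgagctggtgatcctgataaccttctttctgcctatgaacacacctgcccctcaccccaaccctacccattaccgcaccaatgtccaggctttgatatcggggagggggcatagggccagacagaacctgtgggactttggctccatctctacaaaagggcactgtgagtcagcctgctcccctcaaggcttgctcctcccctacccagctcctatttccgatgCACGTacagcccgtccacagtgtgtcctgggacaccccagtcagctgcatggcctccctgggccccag
In Ifit1, the antiviral RNA-binding protein, the matches began 104 and 85 bases before the transcription start, and in Oas1a, which makes 2-5A from ATP on sensing double-stranded RNA, they began 20 and 14 bases before it and overlap. In Slc16a3, the lactate exporter MCT4, the matches began 27 and 14 bases before the start, and in Car9, a carbonic anhydrase of the cell surface, 18 bases before it. The interferon element was found in 9 of 70 promoters of raised genes (12.9%), against 943 of 27025 promoters of all genes (3.49%). The 9 were those of Oas1a, Oas1c, Ifit1, Apol9b, Tll1, Ifih1, Cxcl10, Irgm2 and Ccdc92. Of the 7 raised genes on the interferon list with a promoter, 3 held the element, Oas1a, Ifit1 and Ifih1. Irf7, Ifi44, Xaf1 and Ifitm1 had no match. The short hypoxia core was found in 29 of 70 (41.4%), against 43.8% of all promoters, and in all 3 hypoxia genes of the set. The loose NF-kB pattern GGGANNNNCC was in 40.0% of promoters of raised genes against 20.5% of all, the AP-1 pattern TGANTCA in 15.7% against 7.93%, and the E-box CAGNTG in 58.6% against 51.1%. The GC content was 58.1% against 53.6%. A match is a description of the letters and not a site of binding.

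Most of the raised genes stood below the knockout level in each rescue clone, with or without the TAFH domain, but by amounts that differed between clones. For each gene, the reversal share is the difference from the knockout mean to a clone, divided by the difference from the knockout mean to the control mean, on the log2(FPKM + 1) scale: 0 is the knockout level and 1 the control level. It uses the values that chose the genes, so it is a description with no test. The median share was 0.522 in TAFH-deleted clone 1 and 1.18 in clone 2, and 0.512 in wild-type clone 1 and 0.733 in clone 2. A share of at least 0.5 was seen for 52 and 73 of the 95 genes in TAFH-deleted clones 1 and 2, and for 49 and 72 genes in wild-type clones 1 and 2. The control level or lower was seen for 30 and 56 genes in TAFH-deleted clones 1 and 2, and for 10 and 23 genes in the wild-type clones. TAFH-deleted clone 1 also had 16 genes at or above the knockout level, against 5 in TAFH-deleted clone 2, 3 in wild-type clone 1 and 2 in wild-type clone 2. The clones therefore bracketed a wide range: TAFH-deleted clone 1 left many genes high, and TAFH-deleted clone 2 carried 20 genes more than 1 below the control mean on the log2 scale.

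**Figure D1:**
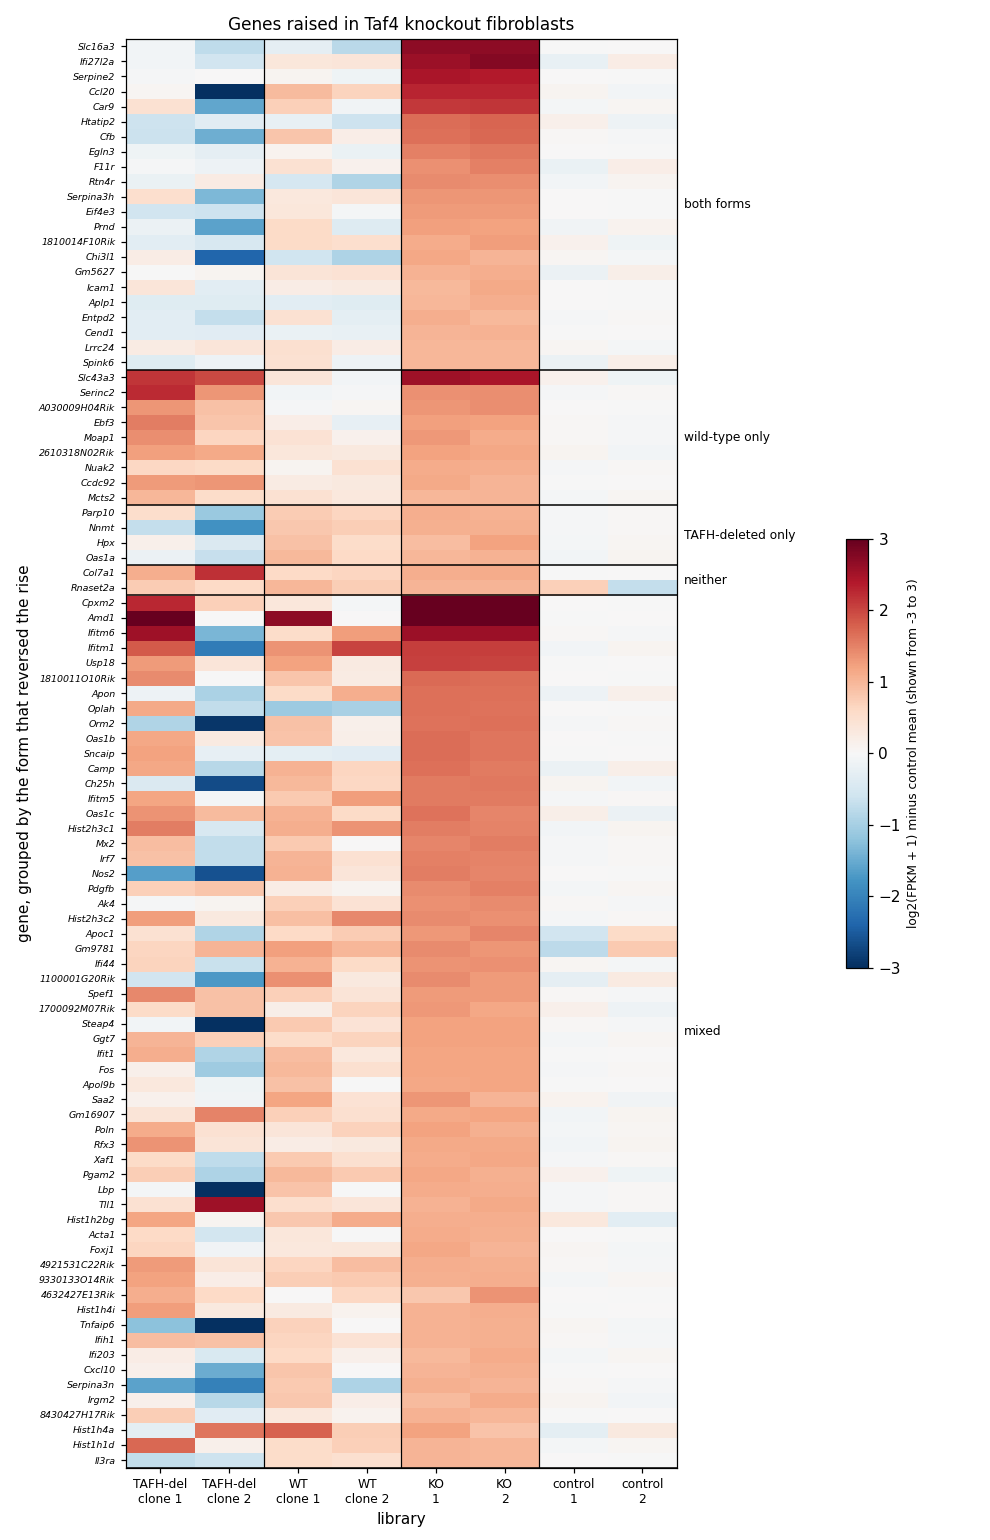
Level of each of the 95 raised genes in each library, as log2(FPKM + 1) minus the mean of the control libraries, by colour from -3 (blue) to 3 (red). Columns are the TAFH-deleted clones, wild-type (WT) clones, knockout (KO) and control libraries, and rows are grouped by the form that reversed the difference, 22 by both forms, 9 by wild-type only, 4 by TAFH-deleted only, 2 by neither and 58 mixed.

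Against knockout libraries directly, the raised genes stood apart from other genes in every clone. The median difference, clone minus knockout, was -0.71 and -1.63 for the raised genes in TAFH-deleted clones 1 and 2, and -0.68 and -0.95 in wild-type clones 1 and 2, while all genes tested had medians of 0.03, 0.03, -0.04 and -0.03 in that order of clones. Since the genes were chosen for high knockout values, and rescue and control libraries are compared with the same knockout libraries, these medians carry no test. Both TAFH-deleted clones lay at least 0.5 below the knockout mean for 52 raised genes (54.7%), against 4.34% of all genes tested. Both wild-type clones did so for 56 raised genes (58.9%), against 5.1% of all. A mean at least 1 below knockout was seen for 58 raised genes in the TAFH-deleted rescue, against 2.92% of all genes, and for 31 in the wild-type rescue, against 1.1% of all.

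**Figure D2:**
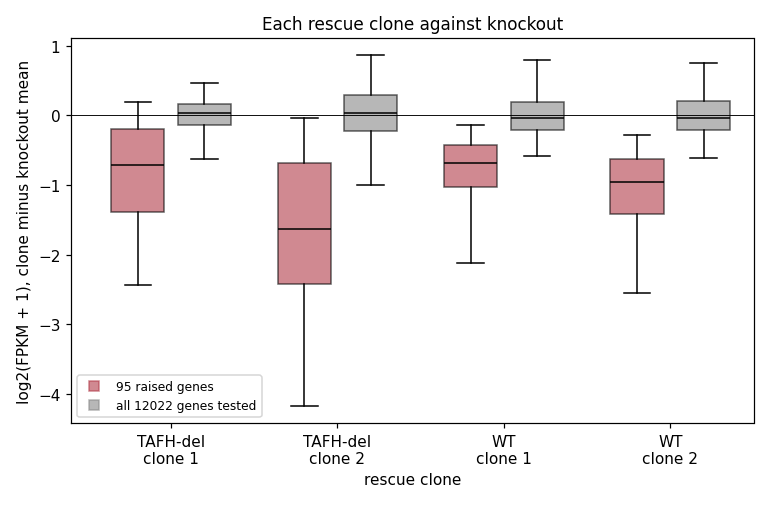
Difference of each rescue clone from the knockout mean on the log2(FPKM + 1) scale, for the 95 raised genes (red) and all 12022 genes tested (grey). Boxes span the quartiles with the median as a line and whiskers the 5th to 95th percentiles, and the red medians of -0.71 and -1.63 in the TAFH-deleted clones and -0.68 and -0.95 in the wild-type clones lie below the grey medians near 0.

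The spread between clones of 1 form was large for these genes. In the TAFH-deleted rescue, clone 2 stood below clone 1 for 78 of 95 genes with a median of -0.81, against a median of 0.01 over all genes, and 37 raised genes stood at least 1 lower in clone 2, against 3.59% of all genes. At least 1 higher in clone 2 were 4 raised genes, against 4.08% of all. In the wild-type rescue, clone 2 stood below clone 1 for 68 genes with a median of -0.27, against 0.00 over all genes; 4 raised genes stood at least 1 lower, against 0.233% of all, and 0 stood at least 1 higher, against 0.0915%. The SD over genes of the difference between clones was 1.13 for raised genes and 0.573 for all genes in the TAFH-deleted rescue, and 0.494 and 0.199 in the wild-type rescue. Lbp, the serum protein that presents bacterial lipopolysaccharide to CD14, shows the extreme: it had 0.0265 FPKM in TAFH-deleted clone 2 and 17.8 in clone 1, 18.1 in wild-type clone 2 and 34.3 in clone 1, 40.9 and 40.0 in knockout and 18.1 and 18.7 in control libraries. Only clone 2 of the TAFH-deleted rescue was far below control. Tll1, a secreted tolloid-like metalloprotease, ran the other way, with 40.9 FPKM in TAFH-deleted clone 2 and 8.81 in clone 1, 8.21 and 9.10 in wild-type clones 2 and 1, 13.8 and 14.7 in knockout and 6.00 and 6.30 in control libraries. It was high in a single rescue clone.

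A form was said to reverse a gene when both of its clones had a share of at least 0.5, not to reverse it when both were under 0.5, and to be split otherwise. The TAFH-deleted form reversed 46 genes, did not reverse 16 and was split for 33. The wild-type form reversed 43, did not reverse 17 and was split for 35. Both forms reversed 22 genes, the wild-type form alone 9, the TAFH-deleted form alone 4 and neither 2, which leaves 58 for which at least 1 form was split. Of those 58, the TAFH-deleted form reversed 20 that split the wild-type clones, and the wild-type form reversed 12 that split the TAFH-deleted clones. The rest were 10 split in both forms, 11 split in the TAFH-deleted form and not reversed by wild type, and 5 split in the wild-type form and not reversed by TAFH-deleted TAF4.

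**Figure D3:**
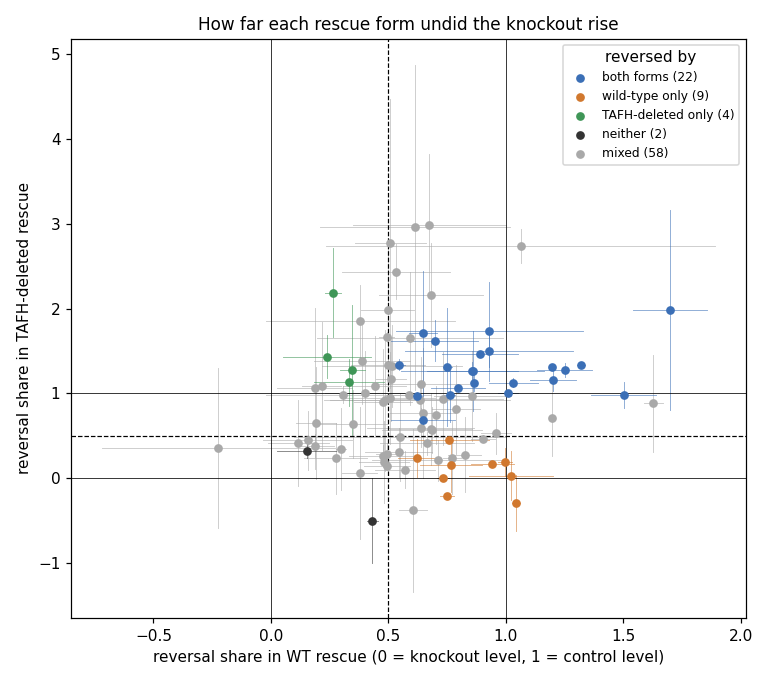
Reversal share of the 95 raised genes in the TAFH-deleted rescue (vertical) against the wild-type (WT) rescue (horizontal), where 0 is the knockout and 1 the control level. Points are means of 2 clones, thin lines join the clones, dashed lines mark the share of 0.5, and colours give the classes of 22, 9, 4, 2 and 58 genes.

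The 22 genes reversed by both forms had varied functions, and Slc16a3, Ifi27l2a and Serpine2 had the largest differences among them. Slc16a3 (mm9 chr11:120809798-120820314) had 2.00 and 0.875 FPKM in the TAFH-deleted clones, 1.65 and 0.831 in the wild-type clones, 19.4 and 19.6 in knockout and 2.15 and 2.25 in control libraries. All 4 rescue clones lay at or below control, and none came near the knockout level. Serpine2, an inhibitor of thrombin and urokinase, had 0.0757 and 0.0998 FPKM in the TAFH-deleted clones, 0.158 and 0 in the wild-type clones, 5.0 and 4.67 in knockout and 0.0939 and 0.0937 in control libraries. It was detectable at more than a trace only in the knockout libraries, where it rested on a mean of 132 fragments against 3 in control. Cend1, a cell cycle exit factor of neurons, had 10.3 and 10.1 FPKM in the TAFH-deleted clones, 11.3 and 11.1 in the wild-type clones, 27.5 and 28.1 in knockout and 13 and 13.1 in control libraries. Here the clones of both forms differed little from each other and all lay below control. Aplp1, a relative of the amyloid precursor protein, was listed at 0 in both TAFH-deleted clones, and had 0.0268 and 0 FPKM in wild-type clones, 1.54 and 1.73 in knockout and 0.291 and 0.264 in control libraries. F11r, the tight-junction protein JAM-A, had 2.31 and 2.08 FPKM in the TAFH-deleted clones, 3.68 and 2.73 in the wild-type clones, 7.88 and 8.66 in knockout and 1.98 and 2.89 in control libraries. The others of the 22 were Ifi27l2a, Ccl20, Car9, Htatip2, Cfb, Egln3, Rtn4r, Serpina3h, Eif4e3, Prnd, 1810014F10Rik, Chi3l1, Gm5627, Icam1, Entpd2, Lrrc24 and Spink6.

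The 9 genes reversed by wild-type TAF4 alone included a membrane transporter, a transcription factor and a kinase. Slc43a3 (mm9 chr2:84776803-84798666), a purine transporter of the plasma membrane, had 5.47 and 4.78 FPKM in the TAFH-deleted clones, 0.880 and 0.370 in the wild-type clones, 7.41 and 6.99 in knockout and 0.580 and 0.338 in control libraries. The TAFH-deleted clones stayed near knockout, the wild-type clones near control, and the forms did not overlap. Ccdc92 (mm9 chr5:125314802-125342591), a coiled-coil protein of centrioles, had 13 and 13.6 FPKM in the TAFH-deleted clones, 5.85 and 6.17 in the wild-type clones, 11.8 and 10.8 in knockout and 4.80 and 4.82 in control libraries. Its TAFH-deleted clones were the highest of all libraries. Ebf3, a helix-loop-helix transcription factor of the early B cell factor family, had 14.8 and 8.69 FPKM in the TAFH-deleted clones, 5.21 and 3.57 in the wild-type clones, 11.8 and 11.6 in knockout and 4.57 and 4.28 in control libraries. Serinc2, a membrane protein of the serine incorporator family, had 4.56 and 1.95 FPKM in the TAFH-deleted clones, 0.105 and 0.141 in the wild-type clones, 2.01 and 2.09 in knockout and 0.139 and 0.207 in control libraries. Nuak2, a kinase related to AMPK, was a case close to the midpoint, with 21.3 and 20.7 FPKM in the TAFH-deleted clones, 14.3 and 18.7 in the wild-type clones, 30.3 and 29.6 in knockout and 13.1 and 13.8 in control libraries. Moap1, a BAX-binding protein, and Mcts2 belong to the same class but share their loci, and the remaining members were A030009H04Rik and 2610318N02Rik.

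The 4 genes reversed by TAFH-deleted TAF4 alone were Nnmt, Oas1a, Parp10 and Hpx. Nnmt, which methylates nicotinamide, had 5.80 and 2.14 FPKM in the TAFH-deleted clones, 18.6 and 17.7 in the wild-type clones, 22.2 in each knockout library and 9.81 and 10.4 in control libraries. Its TAFH-deleted clones lay below control and its wild-type clones close to knockout. Oas1a had 2.66 and 1.57 FPKM in the TAFH-deleted clones, 7.17 and 5.27 in the wild-type clones, 7.34 and 7.58 in knockout and 2.92 and 3.43 in control libraries. Parp10, an ADP-ribosyltransferase, had 11.9 and 3.15 FPKM in the TAFH-deleted clones, 14.2 and 13 in the wild-type clones, 18.2 and 17.5 in knockout and 7.83 and 8.12 in control libraries. Hpx, the haem-binding plasma protein hemopexin, had 2.69 and 1.45 FPKM in the TAFH-deleted clones, 5.05 and 3.85 in the wild-type clones, 5.24 and 6.67 in knockout and 2.18 and 2.45 in control libraries. Neither form reversed Col7a1 or Rnaset2a. Col7a1, the collagen of anchoring fibrils, had 5.50 and 12.9 FPKM in the TAFH-deleted clones, 3.59 and 3.77 in the wild-type clones, 5.44 and 5.56 in knockout and 2.02 and 2.06 in control libraries. Rnaset2a, a secreted RNase with a near-identical neighbour, had 1.94 and 1.63 FPKM in the TAFH-deleted clones, 2.43 and 1.87 in the wild-type clones, 2.49 in each knockout library and 1.83 and 0.0504 in control libraries, so it met the rule through a single control library.

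The difference between the rescue forms is the comparison that the choice of genes did not use. It was tested with limma-trend, a linear model with a variance moderated across all 12022 genes, with p-values adjusted by Benjamini-Hochberg over all of them. Of the genes tested, 0.932% were called higher and 1.69% lower in the TAFH-deleted rescue at an adjusted p under 0.05. Among the raised genes 1 was called higher and 0 lower. At an unadjusted p under 0.05, 8 raised genes were higher, against 16.5% of all genes, and 16 were lower, against 12.3% of all. The called gene was Slc43a3, with 5.12 ± 0.493 FPKM in the TAFH-deleted rescue and 0.625 ± 0.361 in the wild-type rescue (SD, n = 2 clones each), a log2 difference of 1.93 (SE 0.23, adjusted p = 0.0487). The call was lost with a pseudocount of 0.1 (adjusted p = 0.0683), with only the 4 rescue libraries fitted (0.0501), with the clone number as a block (0.0701), without wild-type clone 1 (0.536) and without wild-type clone 2 (0.455). Over all genes the 112 higher and 203 lower calls became 0 in limma with the clone number as a block (2719 genes at an unadjusted p under 0.05), with no filter on low values (4340), without wild-type clone 1 (921) and without wild-type clone 2 (1032). Every call between the forms named below, in the gene lists too, is therefore lost under these 4 settings. The next smallest adjusted p-values belonged to genes that did not pass: Il3ra, the interleukin 3 receptor alpha chain, with a difference of -1.18 (adjusted p = 0.0589), Ccdc92 with 1.03 (0.0616) and Nos2 with -2.84 (0.0619).

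**Figure D4:**
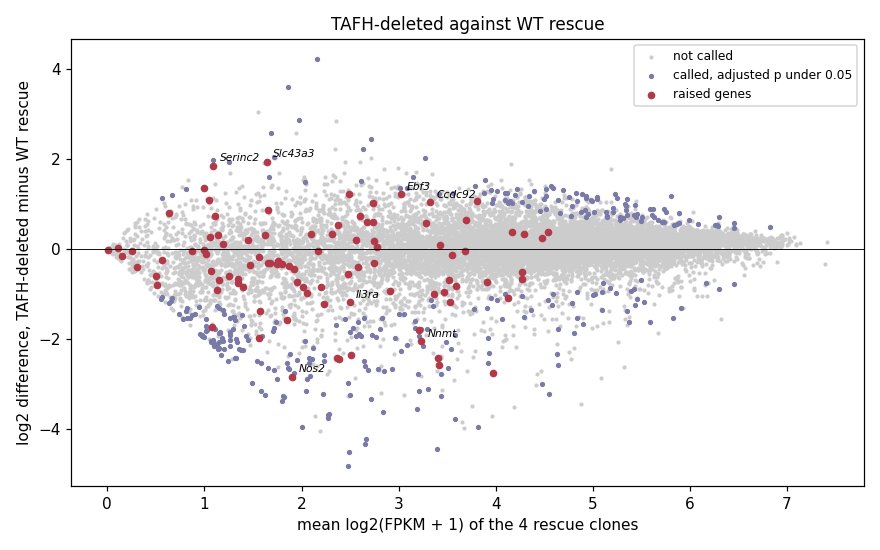
Log2 difference between the rescue forms, TAFH-deleted minus wild-type (WT), against the mean level of the 4 rescue clones, both on the log2(FPKM + 1) scale; red points are the 95 raised genes and blue points other genes called at an adjusted p under 0.05. Red points run from -2.84 for Nos2 to 1.93 for Slc43a3, the only raised gene called.

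The direction of this difference was mixed within the set. The median, TAFH-deleted minus wild-type, was -0.31 for the raised genes and 0.06 for all genes, with 61 raised genes below 0 and 34 above. With TAFH-deleted clone 1 alone the median was 0.10, and with clone 2 alone -0.56, so its sign depends on the clone. Both TAFH-deleted clones lay below both wild-type clones for 29 raised genes (30.5%), against 26.4% of all genes, and above both for 20 (21.1%), against 37.1% of all. The mean of the TAFH-deleted clones was at least 1 lower for 17 raised genes, against 5.94% of all, and at least 1 higher for 9, against 2.6% of all. The 17 were Nos2, Steap4, Lbp, Tnfaip6, Orm2, Ccl20, Ch25h, Nnmt, 1100001G20Rik, Ifitm1, Serpina3n, Cfb, Apon, Oas1a, Fos, Il3ra and Cxcl10. The 9 were Slc43a3, Serinc2, Cpxm2, Oplah, Ebf3, A030009H04Rik, Tll1, Ccdc92 and Col7a1.

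Interferon-stimulated genes formed the largest named group of raised genes. Of 47 genes listed, 38 were tested and 33 stood above 0 in knockout against control, with a median of 0.65, against -0.03 over all genes; 10 of them were members of the raised set. Usp18, which removes ISG15 and dampens interferon receptor signalling, had 14.2 and 7.04 FPKM in the TAFH-deleted clones, 13.4 and 6.57 in the wild-type clones, 24.8 and 24.5 in knockout and 5.21 and 5.31 in control libraries. All 4 rescue clones lay between knockout and control, and clone 2 of each form was nearer control. Irf7, the transcription factor that amplifies type I interferon, had 25.9 and 7.73 FPKM in the TAFH-deleted clones, 28.6 and 18.9 in the wild-type clones, 40.3 and 39.4 in knockout and 13.2 and 13.9 in control libraries. Ifit1 had 31.0 and 7.16 FPKM in the TAFH-deleted clones, 27.6 and 17.7 in the wild-type clones, 33.4 and 33.5 in knockout and 14 and 14.3 in control libraries. For both genes TAFH-deleted clone 2 was below control and the other 3 clones were between control and knockout. Ifi27l2a, a small interferon-induced protein, was near control in all 4 rescue clones, with 1.08 and 0.476 FPKM in the TAFH-deleted clones, 1.81 and 1.83 in the wild-type clones, 12 and 13.8 in knockout and 0.895 and 1.56 in control libraries. Ifih1, the RNA sensor MDA5, was not reversed by TAFH-deleted TAF4 in either clone, with 19.6 and 19.2 FPKM in the TAFH-deleted clones, 16 and 13.8 in the wild-type clones, 21.5 and 21.9 in knockout and 10.3 and 9.63 in control libraries.

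Across the 10 interferon members, 4 and 9 passed the midpoint in TAFH-deleted clones 1 and 2, and 1 and 8 in wild-type clones 1 and 2. TAFH-deleted clones brought 2 and 8 of them to the control level or lower, and wild-type clones brought 0. The order of the clones varied between these members. Xaf1, a pro-apoptotic interferon target, had 17.5 and 6.33 FPKM in the TAFH-deleted clones, 20.6 and 16.5 in the wild-type clones, 26.1 and 26.8 in knockout and 11.2 and 11.8 in control libraries. Between the forms, 1 of the 38 genes was called, Zbp1, which was lower and not a raised gene, while 1.69% of all genes tested were called lower. The median difference was -0.50, against 0.06 over all genes, and 31 of the 38 lay below 0. Against knockout, the 38 genes had medians of -0.24 and -1.15 in TAFH-deleted clones 1 and 2 and -0.20 and -0.43 in wild-type clones 1 and 2, so TAFH-deleted clone 2 stood apart from the other 3 clones. By family, all 5 tested Ifitm genes and all 5 tested Oas genes stood above 0 in knockout, with 3 raised members in each, while 2 of 3 Ifit genes and 5 of 7 Ifi genes did, and Ifit2 was at -0.39. Ifitm1, a membrane protein that restricts virus entry, had 18.3 and 0.261 FPKM in the TAFH-deleted clones, 12.8 and 20.8 in the wild-type clones, 21.6 and 21.7 in knockout and 4.05 and 4.75 in control libraries. Its neighbour Ifitm6 had 22.5 and 0.548 FPKM in the TAFH-deleted clones, 4.87 and 8.60 in the wild-type clones, 22.6 and 22.8 in knockout and 3.10 and 2.92 in control libraries. Both were nearly absent from TAFH-deleted clone 2 alone.

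**Figure D5:**
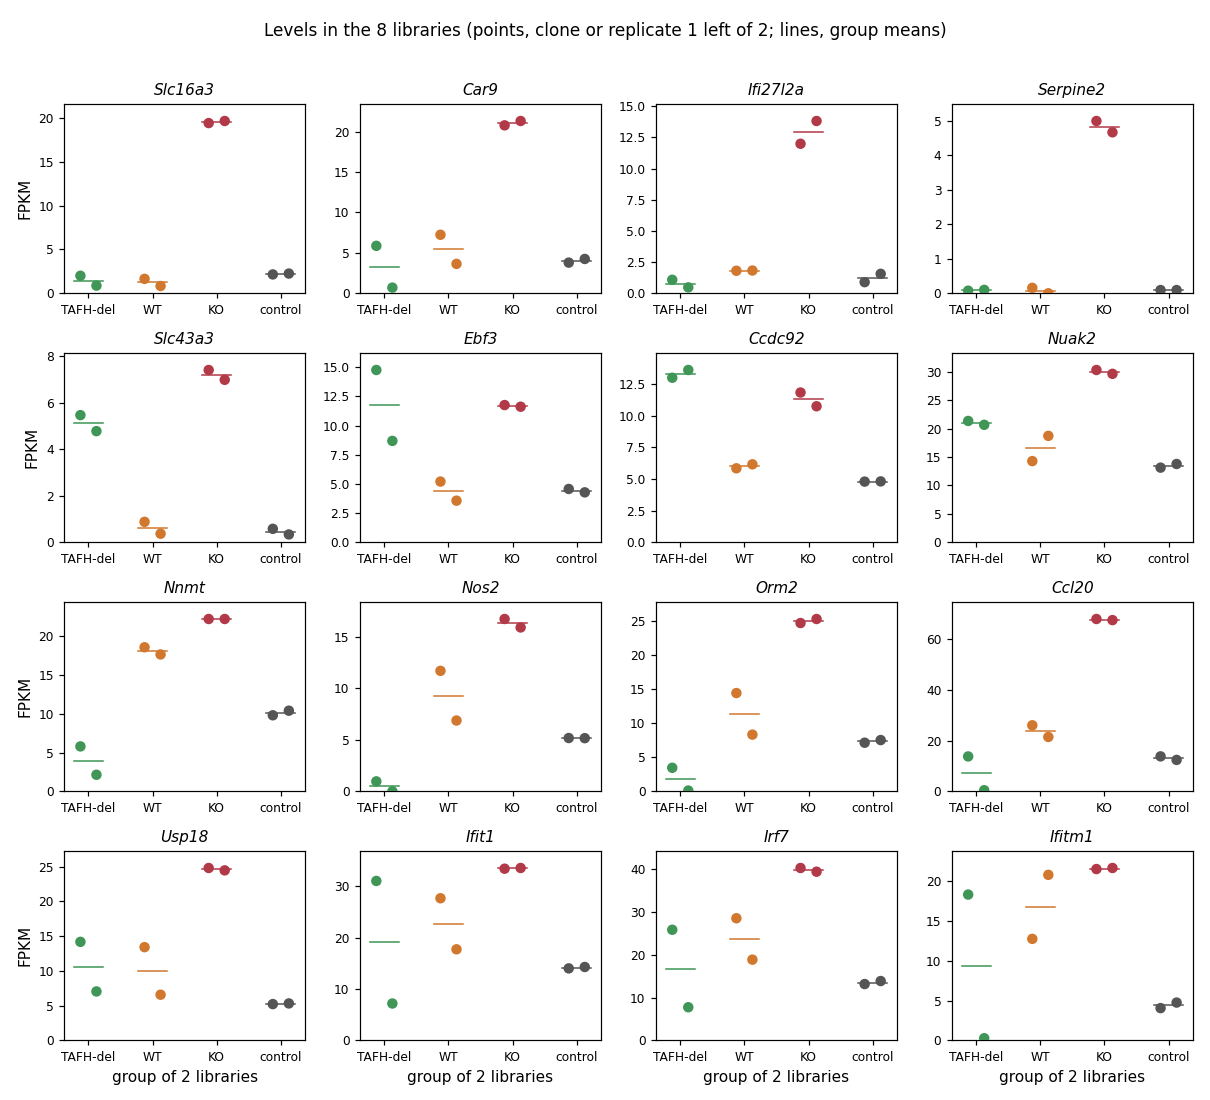
FPKM of 16 raised genes in the 8 libraries, with the TAFH-deleted clones, wild-type (WT) clones, knockout (KO) and control libraries from left to right in each panel, points for libraries and lines for group means. Slc16a3 and Serpine2 in the top row are at or near the control level in all 4 rescue clones, Slc43a3, with 5.47 and 4.78 FPKM in the TAFH-deleted clones, stays near knockout, and Nos2 has its lowest values, 0.963 and 0 FPKM, in the TAFH-deleted clones.

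Chemokines and NF-kB targets gave 4 raised genes out of 32 tested, 25 of which stood above 0 in knockout with a median of 0.30. Ccl20, the chemokine that attracts CCR6-bearing cells, was the most abundant raised gene. It had 13.7 and 0.414 FPKM in the TAFH-deleted clones, 26.0 and 21.4 in the wild-type clones, 67.9 and 67.5 in knockout and 13.8 and 12.4 in control libraries. All 4 rescue clones were far below knockout, and wild-type clones stayed above control. Nos2, the inducible nitric oxide synthase, had 0.963 and 0 FPKM in the TAFH-deleted clones, 11.7 and 6.87 in the wild-type clones, 16.7 and 15.9 in knockout and 5.17 and 5.16 in control libraries. Its TAFH-deleted clones lay below control and its wild-type clones above. Cxcl10, an interferon-induced chemokine, had 20.03 and 5.78 FPKM in the TAFH-deleted clones, 33.0 and 18.2 in the wild-type clones, 37.8 and 38.6 in knockout and 18.0 and 18.1 in control libraries. Icam1, the leukocyte adhesion molecule, was low throughout and had 0.720 and 0.0791 FPKM in the TAFH-deleted clones, 0.577 and 0.633 in the wild-type clones, 1.65 and 1.97 in knockout and 0.347 and 0.346 in control libraries. Between forms, 1 of the 32 was called, Il33, which was lower and not a raised gene, while 1.69% of all genes tested were called lower. Of the 32, 29 lay below 0 and the median was -0.44, against 0.06 over all genes. Against knockout, their medians were -0.31 and -1.34 in TAFH-deleted clones 1 and 2 and -0.05 and -0.15 in the wild-type clones.

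Acute-phase and innate effector genes contributed 5 of 23 tested, and 20 of the 23 stood above 0 in knockout with a median of 0.37. Orm2, an orosomucoid of the acute-phase plasma proteins, had 3.44 and 0.108 FPKM in the TAFH-deleted clones, 14.4 and 8.30 in the wild-type clones, 24.6 and 25.2 in knockout and 7.12 and 7.50 in control libraries. Steap4, a metalloreductase induced by inflammation, had 24.6 and 0.441 FPKM in the TAFH-deleted clones, 45.2 and 34.9 in the wild-type clones, 61.6 and 61.5 in knockout and 26.5 and 25.4 in control libraries. Cfb, complement factor B, had 1.77 and 0.581 FPKM in the TAFH-deleted clones, 6.70 and 4.0 in the wild-type clones, 12.7 and 13.4 in knockout and 3.45 and 3.25 in control libraries. For these genes both TAFH-deleted clones lay below control and both wild-type clones between control and knockout. Chi3l1, a chitinase-like secreted protein, was below control in both wild-type clones, with 5.99 and 0.166 FPKM in the TAFH-deleted clones, 3.0 and 2.15 in the wild-type clones, 12.5 and 11.2 in knockout and 5.31 and 4.75 in control libraries. Against knockout, the 23 tested genes had medians of -0.88 and -2.60 in TAFH-deleted clones 1 and 2 and -0.11 and -0.26 in the wild-type clones. All 23 lay below 0 in TAFH-deleted minus wild-type, with a median of -1.88, against 0.06 over all genes. Of the 23, 3 were called lower, Mt1, Mt2 and S100a8, none of them raised genes, while 1.69% of all genes tested were. The macrophage and leukocyte marker sum, given above, was also lowest in the TAFH-deleted clones. Cd14, itself on the acute-phase list, was the largest term of that sum in every library, while Cd68 and Csf1r were highest in TAFH-deleted clone 2, with 3.45 and 1.09 FPKM; the part of these markers was not tested.

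Tnfaip6, Ch25h and Il3ra were on none of the lists and were picked after their values were seen. Tnfaip6, a hyaluronan-binding secreted protein, had 3.11 and 0.220 FPKM in the TAFH-deleted clones, 14.5 and 8.64 in the wild-type clones, 18.9 and 19.2 in knockout and 9.08 and 8.19 in control libraries. Ch25h, which makes 25-hydroxycholesterol, had 4.52 and 0.161 FPKM in the TAFH-deleted clones, 13.6 and 10.4 in the wild-type clones, 21.1 and 21.3 in knockout and 6.86 and 6.04 in control libraries. Il3ra had 2.59 and 2.90 FPKM in the TAFH-deleted clones, 7.68 and 7.31 in the wild-type clones, 11.1 and 10.9 in knockout and 5.02 and 4.91 in control libraries. All 3 had both TAFH-deleted clones below control, and only for Il3ra were those clones close to each other.

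The hypoxia genes of the set came back towards control in every rescue clone. Of 34 glycolysis and hypoxia genes tested, 28 stood above 0 in knockout with a median of 0.35, and Slc16a3, Car9 and Egln3 were members. Tagln and Timp3, abundant genes of other lists, stood at 0.23 and 0.22 in knockout against control, while Mmp14 was at -0.01. A list median of this size therefore need not mark a raised programme. The same limit applies to the chemokine, acute-phase and protease lists, and the part of library depth was not tested. Car9 had 5.87 and 0.702 FPKM in the TAFH-deleted clones, 7.24 and 3.64 in the wild-type clones, 20.8 and 21.3 in knockout and 3.80 and 4.25 in control libraries. Egln3, a prolyl hydroxylase that marks HIF for degradation, had 0.113 and 0 FPKM in the TAFH-deleted clones, 0.308 and 0.0478 in the wild-type clones, 2.43 and 2.62 in knockout and 0.211 and 0.210 in control libraries. All 3 passed the midpoint in all 4 rescue clones. Ak4, an adenylate kinase of mitochondria, was not on the list and had 3.42 and 3.81 FPKM in the TAFH-deleted clones, 6.39 and 5.14 in the wild-type clones, 10.8 and 11 in knockout and 3.67 and 3.38 in control libraries. Between forms the 34 genes had a median of -0.16, and 1 was called higher, Car12, which is not a raised gene. Of all genes tested, 0.932% were called higher.

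Proteases and their inhibitors held 4 raised genes of 29 tested, 19 of which stood above 0 in knockout with a median of 0.22. Cpxm2, a carboxypeptidase-like secreted protein, had the largest difference of all raised genes. It had 4.44 and 0.877 FPKM in the TAFH-deleted clones, 0.443 and 0.0895 in the wild-type clones, 9.18 and 9.41 in knockout and 0.140 in each control library. The wild-type clones were near control, and TAFH-deleted clone 1 lay between control and knockout. Serpina3n, a secreted protease inhibitor of the alpha-1-antichymotrypsin family, had 0.335 and 0 FPKM in the TAFH-deleted clones, 6.01 and 1.13 in the wild-type clones, 7.47 and 7.14 in knockout and 3.17 and 2.92 in control libraries. Serpina3h had 2.73 and 0.0333 FPKM in the TAFH-deleted clones, 2.25 and 2.37 in the wild-type clones, 5.63 and 5.59 in knockout and 1.63 in each control library. All 6 tested Serpina3 genes stood above 0 in knockout, and these near-identical copies may share reads. Between forms 3 of the 29 were called, Mmp2, Ctsk and Cpa4, all lower and none of them raised genes. The share called lower over all genes tested was 1.69%.

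Other fixed lists held few raised genes. Of the 20 solute and membrane transport genes tested, Slc16a3 and Slc43a3 were members, 10 stood above 0 and the median was -0.01. Pdgfb, a growth factor ligand, was the only member among 23 signalling receptors and ligands, with 14.5 and 15.8 FPKM in the TAFH-deleted clones, 9.90 and 8.86 in the wild-type clones, 24.2 and 25.6 in knockout and 8.08 and 8.70 in control libraries. Its TAFH-deleted clones lay about midway and did not overlap the wild-type clones, but the difference of 0.64 did not pass (adjusted p = 0.0927). Acta1, skeletal muscle actin, was the only muscle member among 12 tested, with 1.88 and 0.301 FPKM in the TAFH-deleted clones, 1.38 and 0.866 in the wild-type clones, 3.08 and 2.97 in knockout and 0.896 and 0.893 in control libraries. Myod1, Myog, Des, Ckm and Myh3 stayed under 1 FPKM in every library. The glutathione and NRF2 list (23 tested), the epithelial and junction list (11 tested) and the interleukin, TNF and toll receptor list (21 tested) held 0 raised genes, and the polyamine list held only Amd1.

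Replication-dependent histone genes, a group added after seeing the values, held 6 raised genes of 28 tested, 22 of which stood above 0 with a median of 0.55. Hist2h3c1 had 17.1 and 3.50 FPKM in the TAFH-deleted clones, 12.4 and 15 in the wild-type clones, 17.2 and 16.6 in knockout and 4.86 and 5.63 in control libraries. Hist1h4i had 15.6 and 7.59 FPKM in the TAFH-deleted clones, 7.39 and 6.57 in the wild-type clones, 13.4 and 14 in knockout and 5.92 and 6.08 in control libraries. Of the 6, 1 and 5 passed the midpoint in TAFH-deleted clones 1 and 2, and 1 in each wild-type clone. These messages mostly lack poly(A) tails and have close copies, and the protocol in the labels is an mRNA one. Foxj1 and Rfx3, transcription factors of ciliated cells, and Spef1, a protein of motile cilia, were picked after their values were seen and stand for no tested group. Of other cilia-related genes looked up, Rfx2 was at -0.54, with 1.34 and 1.29 FPKM in knockout and 2.55 and 2.20 in control libraries, and Hydin was listed at 0 in both knockout libraries and under 0.02 FPKM elsewhere. Rfx3 had 10.5 and 4.85 FPKM in the TAFH-deleted clones, 4.24 and 4.57 in the wild-type clones, 8.93 and 8.98 in knockout and 3.28 and 3.76 in control libraries. Foxj1 had 1.33 and 0.389 FPKM in the TAFH-deleted clones, 0.839 and 0.872 in the wild-type clones, 2.30 and 1.99 in knockout and 0.537 and 0.438 in control libraries. Spef1 had 8.51 and 5.47 FPKM in the TAFH-deleted clones, 4.78 and 3.62 in the wild-type clones, 7.54 and 7.60 in knockout and 2.62 and 2.44 in control libraries. In all 3, TAFH-deleted clone 1 lay above both wild-type clones.

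Some raised genes lay beside each other. Within 200000 bases of another member lay 19 of the 95, in 8 clusters by mm9 position. The count to be had from gene density alone was not worked out. Oas1c, Oas1b and Oas1a lay at chr5:121250208-121357534, and Ifitm5, Ifitm1 and Ifitm6 at chr7:148134861-148202791. Neighbours need not share a pattern: Oas1b had 7.61 and 3.63 FPKM in the TAFH-deleted clones, 6.04 and 3.34 in the wild-type clones, 11.4 and 10.7 in knockout and 2.88 and 2.84 in control libraries, and so overlapped between forms where Oas1a did not. The other clusters were Hist2h3c2 with Hist2h3c1, Hist1h1d with Hist1h2bg and Hist1h4a, Serpina3h with Serpina3n, Irf7 with Cend1, Parp10 with Oplah, and Ch25h with Ifit1. Parp10 and Oplah, the 5-oxoprolinase of the glutathione cycle, had differences of opposite sign between forms, -0.99 and 1.22, neither of them called. Oplah had 15.4 and 3.48 FPKM in the TAFH-deleted clones, 2.50 and 2.84 in the wild-type clones, 22.6 and 22.4 in knockout and 6.52 and 6.47 in control libraries. Chromosome 7 held the most raised genes, 14 of 885 tested (1.58%), while 0.807% of all genes tested stood at least 1 higher in knockout. Chromosomes 12 and 2 held 1.45% and 1.24% of their tested genes. The clustered Ifitm genes, Irf7 and Cend1 are among the 14, so these are not all separate loci.

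The raised genes can be set beside the 666 autosomal genes that stood at least 1 lower in knockout. The TAFH-deleted form reversed 46 of the 95 raised genes (48.4%) and 27 of the 666 lowered genes (4.05%), and was split for 238 lowered genes (35.7%). The wild-type form reversed 43 raised genes (45.3%) and 244 lowered genes (36.6%), and was split for 74 lowered genes (11.1%). By clone, 7.06% and 36.8% of lowered genes passed the midpoint in TAFH-deleted clones 1 and 2, and 45.0% and 39.3% in wild-type clones 1 and 2. The low TAFH-deleted share of lowered genes therefore depended on clone 1. Of the lowered genes, 164 were reversed by the wild-type form alone and 9 by the TAFH-deleted form alone, against 9 and 4 of the raised genes. Both sets share the knockout and control libraries that chose them, so these shares are given side by side with no test.

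In the authors' deposited table, which gives their own comparisons of groups by transcript, 15 raised genes were called lower in the TAFH-deleted rescue than in knockout. That comparison tested 97 of the 127 transcripts of the raised genes. Of all transcripts tested, 0.681% were called lower, which is a share of transcripts and not of genes. In the authors' deposited table, 50 raised genes were called lower in the wild-type rescue than in knockout, with 92 of the 127 transcripts tested. Of all transcripts tested there, 11.7% were called lower. The authors' deposited table called 13 raised genes lower in both forms: Aplp1, Apon, Car9, Cfb, Ch25h, Egln3, Eif4e3, Htatip2, Ifi27l2a, Orm2, Serpine2, Slc16a3 and Tnfaip6. In the authors' deposited table, Nos2 and Serpina3n were called lower in the TAFH-deleted rescue and not in the wild-type rescue. Those comparisons share the knockout libraries, and the clones of the TAFH-deleted rescue were farther apart than those of the wild-type rescue.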

How the data were processed

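RNA of MEFs was sequenced with an Illumina mRNA protocol, per the labels' protocols. The genome build was mm9 and the tools named were Cuffdiff, Cufflinks, TopHat and CASAVA 1.8, per the submitters' processing notes; other versions and options are not given in the sources used here. The authors deposited FPKM values per transcript and library (30028 transcripts, 23235 symbols) with transcript lengths, and the p-values and q-values of their own comparisons, per the file headers. Deposited q-values are quoted only as the authors' calls. Accessions were matched to symbols for 97.9% of transcripts, and 47 symbols turned into dates were restored.

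FPKM were summed per gene and analysed as log2(FPKM + 1), which understates differences of low genes. Low FPKM values were whole multiples of 1 fragment within 0.05 fragments for 100% of values in each library, once 204.1 bases were taken from the length, which gave the implied totals. At 2 kb, 1 fragment was worth 0.0322 to 0.0390 FPKM. In genes of 4 to 14 fragments, the mean chi-square between the 2 libraries of a group was 2.45 in TAFH-deleted, 1.57 in wild-type, 0.615 in knockout and 0.737 in control. The knockout pair and the control pair thus differed by less than sampling noise, and each was averaged and counted as 1 sample. limma-trend (limma 3.58.1, R 4.3.3) was fitted to the 6 resulting samples with 2 residual degrees of freedom, two-sided, so the spread comes from the rescue clones. On simulated data for TAFH-deleted against wild-type rescue on 12022 genes, 97 of 100 genes changed by 3 and 49 of 100 changed by 1 on the log2 scale were recovered, with 17 unchanged genes called. The simulation gave all groups the same spread for a gene. In the data, the SD over genes of the difference between clones was 0.573 in the TAFH-deleted and 0.199 in the wild-type rescue. The simulated rates therefore need not hold for these data.

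The raised genes and the gene lists were chosen with earlier results of these data known. Genes named with values were the 6 with the largest difference in each class at a knockout mean of at least 5 FPKM, called genes, up to 4 per list by level, and the 2 nearest the rule on each side. Predicted genes and genes of uncertain symbol were left out of that choice. Genes outside these rules were chosen after their values were seen: Lbp, Tll1, Cend1, Aplp1, Serinc2, Ifih1, Tnfaip6, Ch25h, Il3ra, Ak4, Hist2h3c1, Hist1h4i, Rfx3, Foxj1, Spef1, Oas1b, Oplah and Rnaset2a. Promoter letters came from RefSeq on GRCm38.p6, and all gene positions are mm9, counted from 1. Alternatives were another pseudocount, quantile normalization, filters, other reversal thresholds, sets of libraries in the fit, a clone-number block, each library left out in turn and, chosen after seeing the data, FPKM summed over shared loci.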

Additional observations from a re-analysis of the deposited data

Results flagged for a closer look

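Slc43a3 was picked out because its effect relative to knockout differed between the rescue forms by a test of that difference. TAFH-deleted minus wild-type was 1.93 (SE 0.23, limma adjusted p = 0.0487), with both TAFH-deleted clones above both wild-type clones. Over its alternatives the adjusted p ran from 0.00127 to 0.536. No explanation was tested.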

How the results depend on the processing

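The raised set of 95 genes became 198 with a pseudocount of 0.1 and 245 with quantile normalization, both holding all 95, 136 with no limit on transcript length, 87 with shared loci summed, and 90 to 100 with 1 knockout or control library left out. The libraries of each of these pairs differed by less than sampling noise. Leaving 1 out therefore cannot show how the set would vary between separate cultures. Genes reversed by wild-type TAF4 numbered 18 at a share of 0.75, 72 at 0.25 and 43 to 72 with 1 rescue clone left out. Those reversed by TAFH-deleted TAF4 numbered 38 at 0.75, 62 at 0.25 and 46 to 73 with 1 clone left out. Which form reversed more genes therefore depended on the threshold. Genes reversed by wild-type alone numbered 6 at a share of 0.75 and 6 at 0.25, 18 on clone means and 11 to 19 with 1 clone left out.

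Between forms, the 1 called raised gene became 0 with a pseudocount of 0.1, with no filter on low values, with the 4 rescue libraries alone and with the replicate block, 24 with 8 libraries each counted, and 0 to 55 with 1 clone left out (55 without TAFH-deleted clone 1, 35 without clone 2, 0 without either wild-type clone). A fit that leaves a form with 1 clone assumes that it varies like the other groups. Clone numbers did not pair the forms (r = -0.07 across genes) and the block ended all 112 higher and 203 lower calls over all genes, Slc43a3 among them.

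Of 40 named genes, 25 kept the direction of that difference in all settings run. With quantile normalization it reversed for Icam1 (0.15), Chi3l1 (0.045), Egln3 (0.027), Acta1 (0.32) and Lrrc24 (0.19). With 1 clone left out it ran from -0.70 to 0.45 for Acta1, -1.35 to 1.73 for Amd1, -1.86 to 0.15 for Car9, -1.61 to 0.98 for Chi3l1, -0.31 to 0.010 for Egln3, -0.57 to 0.10 for Icam1, -1.50 to 0.47 for Ifit1, -3.78 to 0.16 for Ifitm1, -2.28 to 1.64 for Ifitm6, -1.47 to 0.15 for Irf7, -0.18 to 0.091 for Lrrc24, -1.68 to 0.17 for Serpina3h, -0.091 to 0.12 for Serpine2, -0.23 to 0.45 for Slc16a3 and -0.38 to 0.55 for Usp18. The cause was not tested. Depth limits the 28 raised genes that rested on under 20 fragments in control, whose differences are the least precise.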
